A study of Sus scrofa with 16 samples.

Results

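Strongly cytotoxic CD8B T cells are described here, the lymphocytes of the pig small intestine that carried the CD8 beta chain gene CD8B together with transcripts of the granule proteins GZMB and GNLY. They were 516 of the 7061 barcodes kept from 4 droplet libraries. Members were chosen by measured transcripts: a barcode was taken when it had at least 1 unique molecular identifier (UMI, 1 counted transcript) of CD3E, at least 1 of CD8B and at least 5 of GNLY plus GZMB. It also had no UMI of TRDC, CD4, CD79B or MS4A1, fewer than 3 of the division genes TOP2A, CENPF and TPX2, and fewer than 2 of the recirculation genes CCR7, S1PR1 and LEF1. The tissue came from female pigs of mixed breed aged 7.5 weeks. The labels name duodenum just past the pylorus (DUOD), jejunum about 3 feet farther down (JEJ), and ileum 2 to 12 inches before the ileocecal valve, parted into pieces with Peyer's patches (IPP) and pieces without them (NoPP). No treatment or genotype is named for any group. Cells were released from the gut surface with dithiothreitol and EDTA, so they come from the epithelial layer and what detached with it. The 4 titles of a region share 1 matrix, so each region is 1 pooled library without replicates, and nothing in the labels says how many pigs a library holds.

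CD8 T cells recognise peptides on MHC class I with their T cell receptor, and the CD8 alpha and beta chains act as its coreceptor. A cytotoxic T cell stores granzymes, which are serine proteases, and granulysin in granules together with perforin, which opens the membrane of a target cell. In the gut many such cells lie between the epithelial cells, held there by the integrin of ITGAE and ITGB7 that binds E-cadherin. Others carry receptors more familiar from natural killer (NK) cells, such as KLRK1, and gamma delta T cells use a receptor of another kind for which TRDC encodes the constant chain.

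The members fell as 59 cells in DUOD (8.22% of 718 kept barcodes), 101 in JEJ (10.2% of 986), 130 in IPP (3.97% of 3273) and 226 in NoPP (10.8% of 2084). Their summed depth was 172917, 291136, 398805 and 685864 UMIs in that order, and the 4 matrices held 44726845 to 91813234 UMIs in all. The median member had 2718, 2536, 2472 and 2414 UMIs and a mitochondrial share of 11.5% to 13.2%. From NoPP, 121 barcodes were left out because DUOD held at least 10 times as many UMIs of the same barcode. Only 6 kept barcodes were still shared between libraries, 1 of them a member in 1 library, and none was a member in both. A class with the same gate and fewer than 5 UMIs of GNLY plus GZMB, called weakly cytotoxic here, held 11 cells from DUOD, 13 from JEJ, 80 from IPP and 88 from NoPP. Strongly cytotoxic gamma delta cells, with TRDC and CD3E, no CD8B or CD4 and the same 5 UMIs, numbered 30, 27, 59 and 78. The median weakly cytotoxic cell was deeper, at 3068, 5019, 4158 and 4227 UMIs, and the median gamma delta cell held 3135, 3935, 3033 and 3188.

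The label was checked on genes the gate did not use. A CD8A UMI was found in 86.0% of members (444 of 516), in 84.9% of weakly cytotoxic cells, in 34.0% of gamma delta cells and in 1.78% of the 1234 B cells kept (at least 2 UMIs of CD79B plus MS4A1). After each cell was thinned to 1000 UMIs the shares were 53.1%, 39.6%, 11.9% and 0.0810%. CD3D and CD3G, further chains of the T cell receptor complex, had a UMI in 65.3% and 69.2% of members, and CD2 in 92.2%. The data do not go against the name: T cell and CD8 transcripts were present in all 4 regions. Markers of other cells were summed per library as counts scaled to 1000000 UMIs of the members (CPM). B and plasma cell markers came to 55.4 to 97.8 CPM (7 of 9 with a UMI, CD22 at 0), and myeloid markers to 11.6 to 80.2 (6 of 10, with CD68, CSF1R, FLT3 and CD163 at 0). Markers of gamma delta and innate cells came to 3.44 to 21.9 CPM (6 of 7, NCR1 at 0), and those of red cells and stroma to 24.0 to 107.9 (5 of 9, with COL1A1, COL1A2, DCN and VWF at 0). Epithelial markers were higher, at 1613, 2957, 547 and 2240 CPM from DUOD through JEJ and IPP to NoPP, with 21 of 22 detected and OLFM4 at 0. Of the NoPP sum 1683 CPM were TFF3, and 88.9% of its UMIs came from 1 cell. The same list made up 17880, 46580, 18340 and 24030 CPM of the barcodes with 10 to 100 UMIs, which were taken as a measure of free RNA.

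Most of the killing signal that chose these cells was the granzyme, not granulysin. The files call the granzyme gene GZMB (ENSSSCG00000001978), while the gene name table calls the same identifier GZMH, so which of these related granzymes it is cannot be told from the symbol. It had a UMI in all 516 members, and 509 of them reached the limit on this gene alone. GNLY (ENSSSCG00000008228), the lytic protein granulysin, had a UMI in 122 members (23.6%, exact 95% binomial interval 20.0 to 27.6), and it exceeded GZMB in 6. None passed through GNLY alone. By region GNLY was found in 4 of 59 cells in DUOD (6.78%, interval 1.88 to 16.5), 25 of 101 in JEJ (24.8%, 16.7 to 34.3), 39 of 130 in IPP (30.0%, 22.3 to 38.7) and 54 of 226 in NoPP (23.9%, 18.5 to 30.0). The interval of DUOD lies below those of the other 3 libraries, but only just below that of JEJ (16.5 against 16.7). Pigs and pieces of tissue can differ beyond these intervals, which cover counting error only. GNLY helped to choose the members, so these shares are a description and no test. The barcodes taken as a measure of free RNA also held least GNLY in DUOD. They read 184 CPM there, against 291 in JEJ, 2435 in IPP and 2144 in NoPP. The part of free RNA in these shares was not tested.

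The amount per cell varied widely. The median GZMB count per cell was 12 in DUOD, 15 in IPP, 17 in NoPP and 26 in JEJ, with highest values of 40, 178, 115 and 176. At least 50 GZMB UMIs were counted in no cell of DUOD, 6 of IPP, 9 of JEJ and 14 of NoPP. The richest GNLY cell, in IPP, held 179 UMIs, against at most 38 elsewhere. Over all members the sum of both genes had a median of 18, quartiles of 11 and 30 and a maximum of 357. Near the limit, 30 gated cells had a sum of 3 and 17 a sum of 4, just outside, while 22 had 5, 20 had 6 and 22 had 7. A sum of 0 was seen in 92, so the gated cells thin out below the limit but are not parted by a gap.

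**Figure D1:**
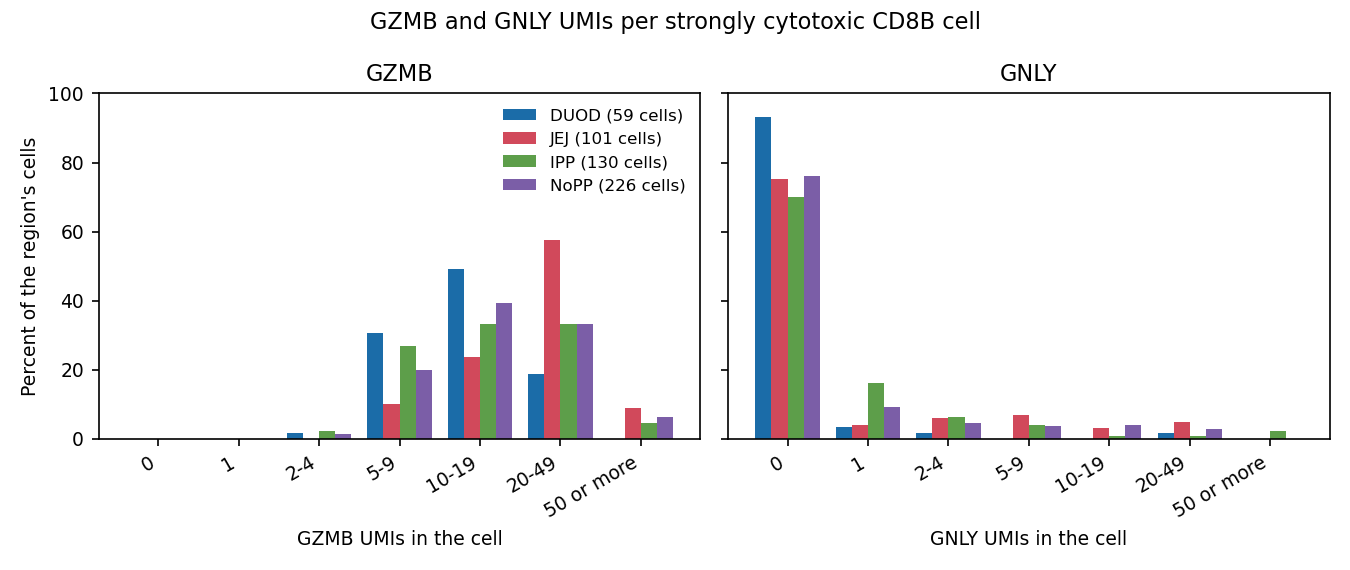
GZMB (left) and GNLY (right) UMIs per strongly cytotoxic CD8B cell. Bars give the percent of the cells of each region in classes of UMIs per cell (59 cells in DUOD, 101 in JEJ, 130 in IPP, 226 in NoPP). JEJ has most of its cells at 20 to 49 GZMB UMIs, and most cells of every region have no GNLY UMI.

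B cells of the same libraries served as a reference for free RNA. A GZMB UMI was found in 25.6% and a GNLY UMI in 22.4% of the 1234 B cells, 1165 of them from IPP, 55 from NoPP, 13 from JEJ and 1 from DUOD, at a median depth of 6730 UMIs. Yet 14 of them (1.13%, exact interval 0.622 to 1.90) reached 5 UMIs of both genes together, and their levels were 130.1 CPM for GZMB and 90.3 for GNLY. Members had 4939, 10300, 6705 and 7083 CPM of GZMB in DUOD, JEJ, IPP and NoPP, and 161.9, 883, 1181 and 520.5 CPM of GNLY. The share of members with a GNLY UMI is thus close to that of deeper B cells. Thinned to 1000 UMIs per cell, a GNLY UMI was seen in 15.9% of members and 5.10% of B cells, and a GZMB UMI in 95.2% and 6.24%. Both genes chose the members, and thinning does not undo that choice. Their levels and shares beside those of B cells are therefore a description and no test of the members. The barcodes of 10 to 100 UMIs held 241, 702, 2032 and 2598 CPM of GZMB and 184, 291, 2435 and 2144 CPM of GNLY. In CPM, GNLY of members lay above these barcodes in JEJ only, and below them in DUOD, IPP and NoPP. Only part of a cell's UMIs is free RNA, so this order does not give the part of free RNA in the members' GNLY, which was not tested.

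Among CD8B T cells that passed the rest of the gate, the strongly cytotoxic ones were the majority in every region. They were 84.3% of 70 cells in DUOD (exact 95% interval 73.6 to 91.9), 88.6% of 114 in JEJ (81.3 to 93.8), 61.9% of 210 in IPP (55.0 to 68.5) and 72.0% of 314 in NoPP (66.7 to 76.9). The intervals of DUOD and JEJ overlap, and both lie above that of IPP. When every barcode was thinned to 1000 UMIs before the whole gate was applied, fewer cells passed and the shares were 46.2% (12 of 26; 26.6 to 66.6) in DUOD, 89.5% (51 of 57; 78.5 to 96.0) in JEJ, 48.1% (38 of 79; 36.7 to 59.6) in IPP and 63.8% (83 of 130; 55.0 to 72.1) in NoPP. DUOD was close to JEJ at full depth and to IPP after thinning, while the interval of JEJ lay above those of IPP and NoPP both ways. Gamma delta T cells reached the limit less, at 31.2% of 96, 29.0% of 93, 19.4% of 304 and 21.7% of 359. With 1 library per region no test of these differences was possible.

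**Figure D2:**
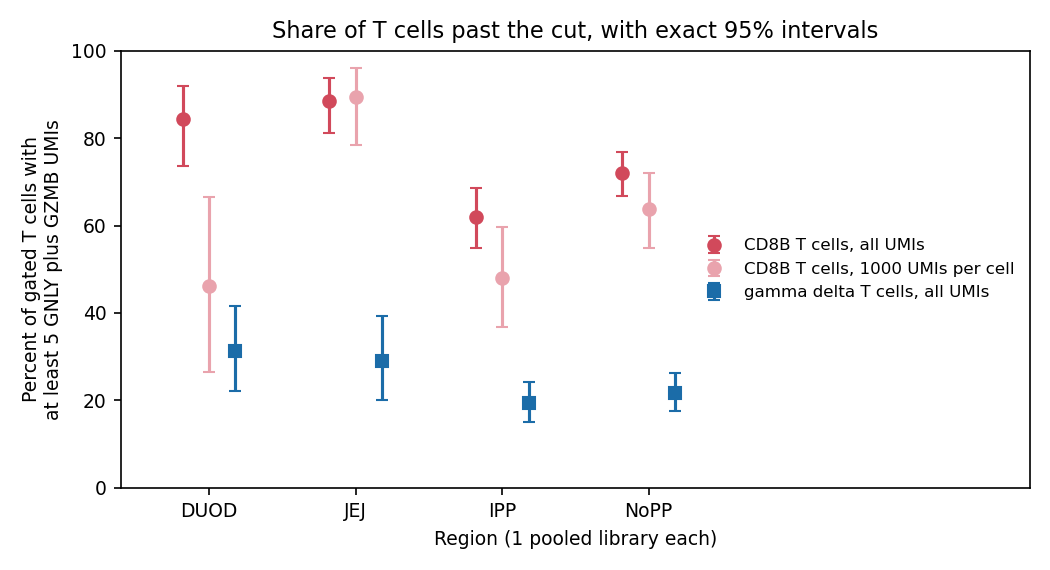
Percent of gated T cells with at least 5 GNLY plus GZMB UMIs by region, with exact 95% binomial intervals. Dark red points are CD8B T cells at full depth (61.9% to 88.6%), light red points the same after thinning to 1000 UMIs per cell, and blue squares gamma delta T cells (19.4% to 31.2%).

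Strongly and weakly cytotoxic CD8B cells were compared on the genes outside the gate. GZMA, GZMK, the transcription factor ZBTB16 and the ectonucleotidase ENTPD1 were higher in every library in the strongly cytotoxic class. The NK-type receptor KLRK1, the signalling adaptor FCER1G and the chemokine receptor CXCR4 were lower in every library. Perforin, NKG7, CCL5 and CD8A did not pass the test. UMIs were summed per library and class and tested with edgeR's quasi-likelihood test, with library as a term, over 4364 genes and with Benjamini-Hochberg adjustment (threshold 0.05). In all, 53 genes were higher (1.21%) and 83 lower (1.9%) in the strongly cytotoxic class, 3.12% either way, and the 14 genes of the gate were not tested. The classes come from the same libraries, so the spread measured is that between the 4 pooled libraries and may be technical. DESeq2 called 9 higher and 26 lower, and edgeR called 72 and 149 without DUOD, 30 and 55 without JEJ, 23 and 41 without IPP and 9 and 14 without NoPP. Of the 47 genes named by the rule or called within a list, 14 kept their call in every alternative that tested them, among them both GZMA copies, GZMK, ZBTB16, ENTPD1, KLRK1, FCER1G, CXCR4, TCF7, ISG15 and SLA-DQB1.

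Of the granule and killing proteins, 3 of 17 tested members rose and 2 fell, with a list median log2 difference of -0.17 against 0.02 over all genes. Granzyme A, a protease that acts inside target cells, is listed under 2 identifiers, and reads of such near copies could have been split between them by the counting. The first, ENSSSCG00000016902, stood at 914, 3775, 2442 and 2159 CPM in the strongly cytotoxic cells of DUOD, JEJ, IPP and NoPP, against 62.1, 0, 75.4 and 74.7 in the weakly cytotoxic ones. Every strongly cytotoxic sum lay above every weakly cytotoxic one (log2 difference 5.08 ± 0.21 SE, adjusted p = 5.7e-38, edgeR). The second, ENSSSCG00000016903, read 329.6, 1079, 1131 and 891 CPM against 0, 76.0, 55.1 and 46.3 (4.21 ± 0.21, adjusted p = 1.42e-31), again without overlap. Granzyme K, a granzyme of less differentiated effector cells, had 161.9, 234, 133 and 157 CPM against 62.1, 121.6, 34.8 and 20.6 (1.98 ± 0.27, adjusted p = 3.31e-08), also without overlap. GZMM, another granule protease, did not pass, at 168, 92.7, 148 and 62.7 CPM against 93.2, 243, 151 and 59.2 (adjusted p = 0.797). In the opposite direction, CTSW, a cathepsin of cytotoxic cells, read 1261, 687, 1003 and 739 CPM against 1459, 1262, 1441 and 1457. It fell by 0.71 on the log2 scale (adjusted p = 0.000107), lower in 4 of 4 libraries. SRGN, the proteoglycan that packs granules, differed by -0.48 (adjusted p = 0.0394). Without NoPP, CTSW had an edgeR adjusted p of 0.235. SRGN lost its call in 12 of 19 alternatives, among them without JEJ, IPP or NoPP (adjusted p = 0.252, 0.285 and 0.424, edgeR).

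Perforin, encoded by PRF1, did not pass the test. It read 161.9, 227, 258 and 246 CPM in the strongly cytotoxic cells and 342, 167, 139 and 154 in the weakly cytotoxic ones, higher in 3 of 4 libraries (0.51 ± 0.19, adjusted p = 0.174, edgeR). NKG7, a granule membrane protein needed for release, read 411 to 450.0 CPM against 310.5 to 471 (adjusted p = 0.898). CCL5, a chemokine stored by memory CD8 T cells, was at 26540 to 30290 CPM against 22560 to 31760 (adjusted p = 0.741). It had a UMI in 99.8% of members and also in 43.1% of B cells. The coreceptor CD8A, higher in 4 of 4 libraries, differed by 0.21 ± 0.14 (adjusted p = 0.595).

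ENTPD1, which degrades extracellular ATP and marks chronically stimulated and tissue T cells, stood at 57.8, 116.8, 120.4 and 88.9 CPM in the strongly cytotoxic cells and at 0, 0, 11.6 and 30.9 in the others. The 2 classes did not overlap (2.34 ± 0.34, adjusted p = 2e-07, edgeR). Among 9 checkpoint and costimulation genes it was the 1 that rose, and IL2RB, a chain of the interleukin 2 and 15 receptors, was the 1 that fell (-0.90, adjusted p = 0.00192, and 0.207 without NoPP). Of 22 transcription factors, MAF rose (1.72, adjusted p = 0.0296) and IKZF2, the factor Helios, fell. IKZF2 read 63.6, 92.7, 112.8 and 88.9 CPM against 217, 228, 232 and 226 (-1.30 ± 0.20, adjusted p = 4.32e-07), with no overlap. MAF had an adjusted p of 0.0698 when the highest cell of each gene was left out. ZBTB16, the factor PLZF of innate-like lymphocytes, rose from 0, 0, 2.90 and 10.3 CPM to 40.5, 75.6, 42.6 and 35.0 (2.67 ± 0.59, adjusted p = 0.00172). PRDM1, the factor Blimp-1 of effector and resident cells, read 17.4, 61.8, 32.6 and 74.4 CPM against 0, 0, 14.5 and 15.4 (1.96 ± 0.45, adjusted p = 0.0024).

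Of 11 tested receptors and adaptors of the NK type, 3 fell, none rose and 8 were not called, with a median of -0.40. KLRK1, the activating receptor NKG2D, read 75.2, 124, 211 and 163 CPM in the strongly cytotoxic cells against 373, 547, 496 and 582 in the weakly cytotoxic ones (-1.76 ± 0.17, adjusted p = 4.48e-14, edgeR), with no overlap. A KLRK1 UMI was found in 24.0% of strongly and 51.0% of weakly cytotoxic cells. FCER1G, the adaptor chain FcR gamma, read 11.6, 3.44, 112.8 and 36.4 CPM against 155, 122, 244 and 232 (-2.08 ± 0.24, adjusted p = 1.26e-10). Its strongly cytotoxic values were lower in all 4 libraries and highest in IPP. KLRB1, the receptor CD161, was seen only in the ileum in both classes, with 5 UMIs against 30 (adjusted p = 0.0259). KLRD1 had no UMI in any member. SLAMF7, not called, read 116, 131, 107.8 and 125 CPM against 0, 122, 107.3 and 106 (0.18, adjusted p = 0.837). KIT, the stem cell factor receptor of innate lymphoid and mast cells, was the 1 tested gene of the gamma delta and innate list. It read 0, 3.44, 12.5 and 10.2 CPM against 62.1, 45.6, 55.1 and 77.2 (-2.85 ± 0.49, adjusted p = 1.24e-05, and 0.170 without NoPP).

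Of 6 tested genes of recirculating and memory T cells, 3 fell, none rose and 3 were not called, with a median of -1.37. IL7R, the interleukin 7 receptor, was among the last, higher in 3 of 4 libraries (0.22, adjusted p = 0.731). CXCR4, the receptor for CXCL12, read 249, 44.6, 80.2 and 54.0 CPM against 310.5, 349.7, 334 and 260.0 (-1.99 ± 0.21, adjusted p = 2.52e-12, edgeR). The highest member value, in DUOD, came close to the lowest weakly cytotoxic value, in NoPP. TCF7, a factor of long-lived T cells, read 179, 72.1, 150.4 and 114 CPM against 404, 228, 290.0 and 309 (-1.29 ± 0.18, adjusted p = 1.26e-07), with no overlap. LTB, a lymphotoxin chain, also fell (-1.88, adjusted p = 8.35e-05), but 31.7% of its weakly cytotoxic UMIs came from 1 cell. Without the highest cell of each gene its adjusted p was 0.208, and without NoPP 0.179. Residency and gut homing genes were mixed, with 2 of 13 up (PRDM1 and GPR183) and 3 down (CCR9, ZNF683 and RGS1). GPR183 lost its call in 10 of 19 alternatives, among them without JEJ or NoPP (0.231 and 0.509), and turned to -0.45 at a mitochondrial limit of 10%. RGS1 lost its call in 10 of 19 as well, among them without JEJ, IPP or NoPP (0.398, 0.137 and 0.448), and PRDM1 at a limit of 10 UMIs (0.0752). CCR9, which guides T cells to the small intestine, read 179, 199, 221 and 232 CPM against 310.5, 563, 351 and 440.2 (-0.99 ± 0.17, adjusted p = 8.22e-06, and 0.0565 without NoPP). ZNF683, the factor Hobit, had 1 UMI in all members against 23 in the weakly cytotoxic cells, which is 42.9-fold lower (counting interval 6.96 to 1765). The integrin gene ITGAE read 208, 337, 481 and 360.1 CPM against 404, 411, 389 and 419.6 (adjusted p = 0.791), and CD69 did not pass either (adjusted p = 0.891).

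In the B and plasma cell list the 1 tested gene differed by -0.03. Other genes with a named fall were DHRS3 of retinoid metabolism (-1.97), the factor SOX4 (-1.92), the protease NAPSA (-1.80), the small GTPase RHOQ (-1.65), CYS1 (-1.64) and the adaptor LAT2 (-1.54). The calls of DHRS3, SOX4, NAPSA, RHOQ and LAT2 were lost without NoPP, at adjusted p from 0.0834 to 0.535, and that of SOX4 also without IPP (0.261).

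Of 8 chemokine and cytokine genes, CCL3L1 rose (0.96, adjusted p = 0.0232, edgeR) and XCL1 fell. XCL1, which attracts cross-presenting dendritic cells, read 329.6, 244, 173 and 233 CPM against 248, 578, 513 and 644 (-1.31 ± 0.17, adjusted p = 3.2e-09). It was lower in JEJ, IPP and NoPP and higher in DUOD, and without NoPP its adjusted p was 0.0573. CCL3L1 lost its call without IPP or NoPP (adjusted p = 0.240 and 0.509). IFNG, the cytokine interferon gamma, had 24 UMIs in all members and a UMI in 3.10% of them, and CSF2 had none. Of 9 interferon response genes ISG15 fell, from 217, 182, 226 and 224 CPM to 86.8, 79.0, 115 and 58.3 (-1.45 ± 0.21, adjusted p = 1e-07). In the list of MHC class II and antigen display, which also holds B2M and TAP1 of the class I pathway, 2 of 6 were called. CD74, the class II invariant chain (-0.64), and SLA-DQB1 (-1.39, adjusted p = 2.95e-07, edgeR) were both lower in JEJ, IPP and NoPP and higher in DUOD. CD74 lost its call in 9 of 19 alternatives, among them without IPP (adjusted p = 0.120, edgeR) or NoPP (0.179).

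The remaining lists gave few calls. In the T cell receptor list 1 of 18 fell, CD247, the zeta chain (-0.74, adjusted p = 0.000205, and 0.0644 without IPP, edgeR), and none rose. None of 13 glycolysis genes and none of 9 division genes was called, at medians of -0.05 and 0.07. With 3.12% of all genes called, lists this short are not set apart from that share. The gate also limited division genes in both classes. Cytoskeleton genes gave 0 up and 2 down of 14, S100A4 (-1.51) and VIM, the intermediate filament vimentin (-1.01), both lost without NoPP (adjusted p = 0.279 and 0.112). The immediate early list gave FOS alone, 1 of 17, lower in 3 of 4 libraries (-0.87, adjusted p = 0.0232). FOS lost its call without JEJ (0.266) or IPP (0.746), and 33.6% of its member UMIs came from 1 cell. Survival genes gave TNFAIP3, an inhibitor of NF-kappa B, up (0.66, adjusted p = 0.0114) and BCL2A1 down (-0.77) of 11. TNFAIP3 lost its call without JEJ or NoPP (0.151 and 0.499). BCL2A1 lost it in 11 of 19 alternatives, among them without JEJ, IPP or NoPP (0.0504, 0.770 and 0.0643). In the epithelial list 1 of 13 rose, the goblet cell peptide TFF3 (2.48), with 83.8% of its member UMIs in 1 cell and an adjusted p of 0.534 without it. In the myeloid list CST3 fell (-2.96), with 89.8% of the weakly cytotoxic UMIs in 1 cell and an adjusted p of 0.571 without it.

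Other genes with a named rise included the RNA silencing gene TNRC6C (1.32), the ubiquitin ligase UBR2 (1.48), the kinesin KIF20B (1.95), GLMN (1.31) and the lipoprotein gene APOC3 (2.29). TNRC6C and UBR2 lost their call without IPP (adjusted p = 0.0802 and 0.251, edgeR) or NoPP (at most 0.170). KIF20B lost it without JEJ (0.0705). GLMN lost it in 10 of 16 alternatives, among them without JEJ, IPP or NoPP (0.120 to 0.255). APOC3, a product of enterocytes, read 104.1, 381, 7.52 and 2.92 CPM against 62.1, 45.6, 0 and 2.57, and 1089, 4236, 153 and 269 in barcodes of 10 to 100 UMIs. Without JEJ its adjusted p was 0.732, and the part of free RNA in it was not tested.

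**Figure D3:**
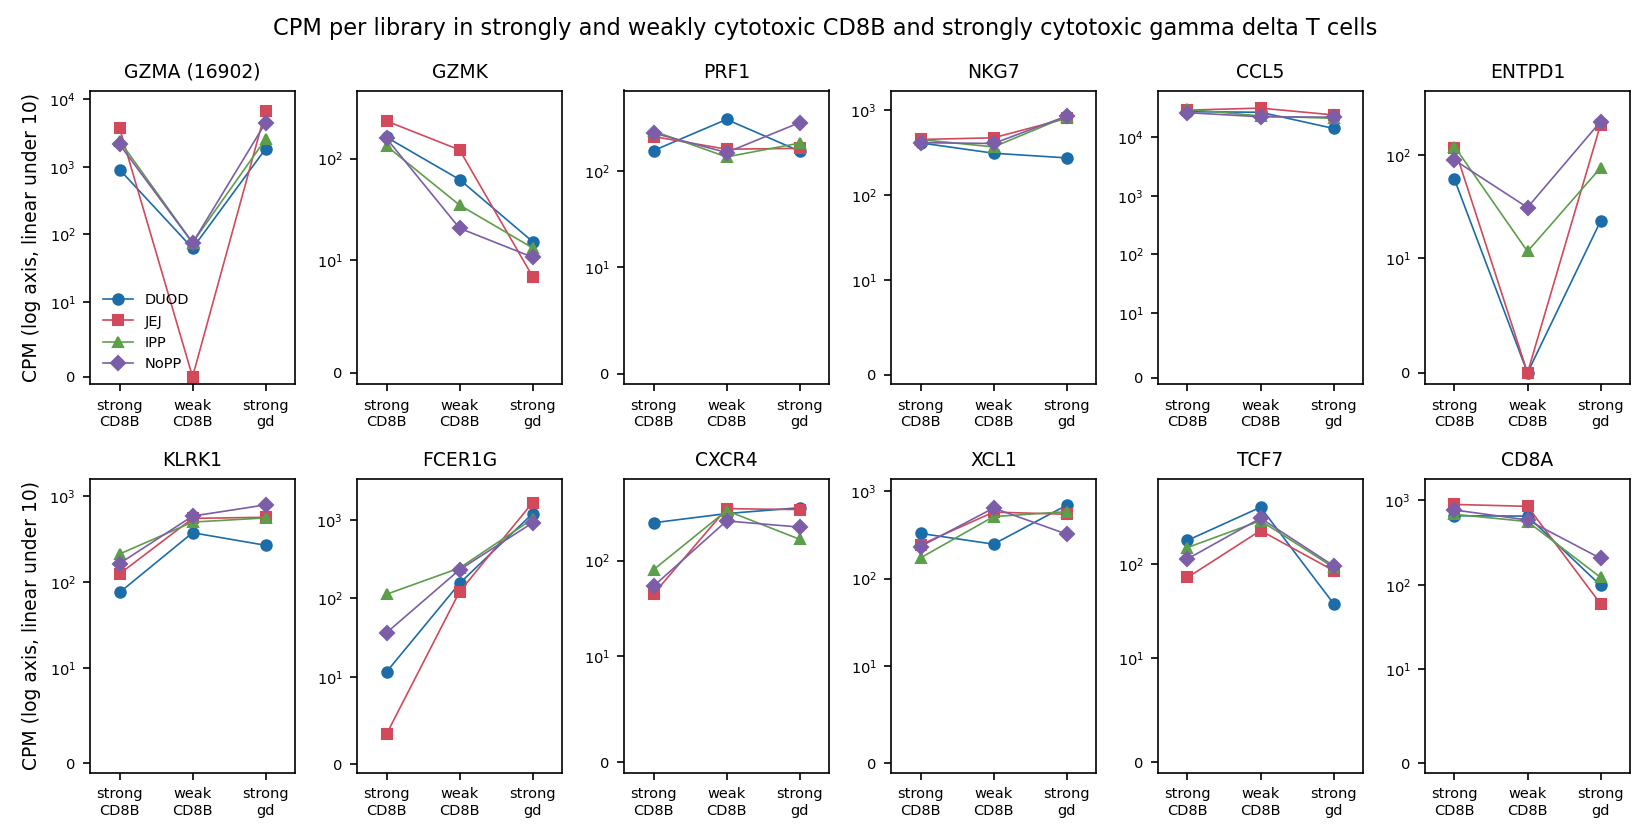
CPM of 12 genes in strongly cytotoxic CD8B, weakly cytotoxic CD8B and strongly cytotoxic gamma delta (gd) T cells, 1 point per library joined by lines, on a log axis that is linear under 10. GZMA is the copy ENSSSCG00000016902. It is high in both strongly cytotoxic classes, GZMK is highest in the strongly cytotoxic CD8B cells and FCER1G in the gamma delta cells of every library.

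Both strongly cytotoxic classes passed the same limit on GNLY plus GZMB, so their comparison asks how CD8B cells differ from gamma delta cells held to the same limit on killer genes. The CD8B cells had more GZMK, GZMM, CD8A, CD5 and LAT, and less FCER1G, MEF2C and FGR. GZMA was lower in the CD8B cells, and PRF1, NKG7, ENTPD1 and ITGAE did not pass the test. The same edgeR test over 3985 genes called 59 higher (1.48%) and 138 lower (3.46%), 4.94% either way. The strongly cytotoxic CD8B sums are shared with the comparison above, so the 2 lists of calls are not independent. Without NoPP the test called 113 higher and 225 lower, without JEJ 26 and 67, without IPP 30 and 85, and without DUOD 36 and 106. In the gamma delta sums 1 barcode held 34786 of the 131517 UMIs of DUOD, and 1 held 31941 of the 227377 UMIs of IPP. Without the deepest 5% of cells the test called 146 higher and 233 lower. Of the 56 genes named by the rule or called within a list, 24 kept their call in every alternative that tested them, among them GZMK, CD8A, CD5, LAT, CXCR3, IL7R, FCER1G, KLRK1, MEF2C, FGR and IKZF2. Epithelial markers summed to 11030, 1171, 14060 and 352 CPM in the gamma delta cells of DUOD, JEJ, IPP and NoPP, against 1613, 2957, 547 and 2240 in the members, the last mostly TFF3 of 1 cell. None of 15 epithelial genes was called, at a median of -1.45, and the part of epithelial RNA in the comparison was not tested.

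Of 18 T cell receptor genes, 4 were higher and 1 lower in the CD8B cells, with a median of 0.56 against -0.00 over all genes. CD8A read 659, 896, 684 and 771 CPM in DUOD, JEJ, IPP and NoPP against 98.8, 59.8, 123 and 206 in the gamma delta cells (2.61 ± 0.27, adjusted p = 8.32e-05, edgeR), with no overlap. CD8A pairs with the CD8B chain that the gate asked for in 1 class and barred in the other. LAT, the scaffold below the receptor, read 278, 337, 326 and 349.9 CPM against 60.8, 25.6, 79.2 and 56.9 (2.50 ± 0.26, adjusted p = 8.32e-05). CD5, a brake on receptor signals, read 249, 361, 394 and 380.5 CPM against 38.0, 0, 119 and 74.7 (2.53 ± 0.39, adjusted p = 0.00166). Neither gene overlapped between the classes. CD6 was also higher (1.38), and CD3G was lower (-1.09 ± 0.18, adjusted p = 0.0028), at 463 to 710 CPM against 996 to 1709. CD6 lost its call without DUOD, JEJ or IPP, at adjusted p from 0.0738 to 0.126.

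Granzymes went in both directions. GZMK, with 257 UMIs in members and 9 in gamma delta cells, read 161.9, 234, 133 and 157 CPM against 15.2, 8.54, 13.2 and 10.7 (3.73 ± 0.32, adjusted p = 2.9e-05, edgeR). GZMM read 168, 92.7, 148 and 62.7 CPM against 7.60, 0, 26.4 and 24.9 (2.58 ± 0.44, adjusted p = 0.00368). Both were without overlap, and GZMM lost its call at a mitochondrial limit of 10% (0.13) and in the ileal libraries alone (0.088). GZMA ENSSSCG00000016902 read 1855, 6777, 2573 and 4518 CPM in the gamma delta cells, above the members in 4 of 4 libraries (-0.74 ± 0.16, adjusted p = 0.0184). The copy ENSSSCG00000016903 read 753, 2521, 1359 and 2355 CPM there (-1.01 ± 0.19, adjusted p = 0.00666). Across libraries the GZMA values of both classes overlap, and the order holds within each library. Both calls were lost without JEJ (adjusted p = 0.126 and 0.0762) and the first also without NoPP (0.0509). CTSW was higher (1.58, adjusted p = 0.00536, and 0.0661 without JEJ), which makes 3 up and 2 down of 17. PRF1 read 161.9 to 258 CPM against 160 to 317 (adjusted p = 0.850), and NKG7 411 to 450.0 against 274 to 847 (-0.60 ± 0.24, adjusted p = 0.188, and 0.0155 when the highest cell of each gene was left out).

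NK-type genes gave 2 up and 3 down of 9. FCER1G read 1201, 1658, 1025 and 918 CPM in gamma delta cells, against 3.44 to 112.8 in members (-4.91 ± 0.51, adjusted p = 8.32e-05, edgeR), and had a UMI in 79.4% and 4.84% of the cells. KLRK1 was lower (-1.92 ± 0.20, adjusted p = 8.32e-05), at 75.2 to 211 CPM against 266 to 786, with no overlap. CD244, a receptor of the SLAM family, was lower too (-1.09, adjusted p = 0.0252), a call lost without JEJ or IPP (0.170 and 0.110). SLAMF7 (2.04) and HCST, the adaptor DAP10 through which KLRK1 signals (2.11, adjusted p = 0.00368), were higher, and HCST lost its call at a limit of 10 UMIs (0.0664) and in the ileal libraries alone (0.0702).

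Some signalling genes were all but absent from the CD8B cells. MEF2C, a transcription factor, had 1 UMI in all members and 242 in gamma delta cells, 495-fold lower (counting interval 88.0 to 19640). PRKG1, a cyclic GMP kinase, had 1 UMI against 69, 141-fold lower (24.5 to 5656). GAPT, an adaptor that binds GRB2, had none against 68. Set at the floor of 3 UMIs over all members, it was at least 46.4-fold lower. Each of these 3 genes was lower in NoPP gamma delta cells than in those of the other regions, for MEF2C at 53.4 CPM against 356 to 707. FGR, a kinase of the SRC family, read 0, 0, 17.6 and 7.29 CPM against 464, 547, 242 and 67.6 (-4.88 ± 0.55, adjusted p = 0.000134, edgeR). MATK, a kinase that restrains that family, read 3.44 to 20.1 CPM against 180 to 419 (-4.23), and FSCN1, the actin bundler fascin, 5.78 to 11.7 against 103 to 487 (-4.35). LDHD (-4.62), GRASP (-4.84), FAM49A (-4.26), ATP1B1, a sodium pump subunit (-4.21), and LTC4S of leukotriene synthesis (-4.28) also fell. LTC4S lost its call without JEJ (adjusted p = 0.0584).

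Of 11 residency and gut homing genes, 2 were higher, 1 was lower and 8 were not called. CXCR3, the receptor for interferon-induced chemokines, read 63.6, 82.4, 72.7 and 84.6 CPM against 7.60, 8.54, 17.6 and 10.7 (2.66 ± 0.38, adjusted p = 0.000983, edgeR), with no overlap. GPR183, an oxysterol receptor, was higher (1.60, adjusted p = 0.00885, and 0.0584 without JEJ), and RGS1 was lower (-0.91, adjusted p = 0.0111, and 0.0949 without JEJ and 0.0919 without IPP). Of 5 recirculation genes, IL7R was higher (2.25 ± 0.36, adjusted p = 0.00219), at 161 to 256 CPM against 0 to 83.6. ITGB1 (-1.62, adjusted p = 0.000307) and CXCR4 (-1.56, adjusted p = 0.0122, and 0.0875 without JEJ) were lower. The integrin gene ITGAE read 208 to 481 CPM against 220.5 to 541 and did not pass (adjusted p = 0.760).

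Of 7 chemokine and cytokine genes, CCL5 (0.50, adjusted p = 0.0221) and CCL3L1 (1.09, adjusted p = 0.0483) were higher and XCL1 lower (-1.10, adjusted p = 0.00871, edgeR). All 3 calls were lost without JEJ or without IPP. That of CCL3L1 was lost in 9 of 18 alternatives, among them also without DUOD (0.124). Of 22 transcription factors, IKZF2 (-1.91, adjusted p = 0.00012), ID3 (-3.40, adjusted p = 0.00512) and ID2 (-0.87) were lower. ID3 and ID2 lost the call without JEJ (adjusted p = 0.0946 and 0.135), and ID2 also without IPP (0.0957). Among 10 checkpoint genes 3 were lower, CD200R1 (-1.62), IL2RB (-1.25) and TOX (-1.08), the last 2 lost without JEJ (0.0698 and 0.141) and TOX also without IPP (0.129). ENTPD1, high in both classes, differed by -0.32 (adjusted p = 0.654). ISG15 was lower (-1.41, adjusted p = 0.0122), as was CAPG, an actin capping protein (-3.60, adjusted p = 0.000173). VIM was higher (1.54, adjusted p = 0.0359), as were TNFAIP3 (1.48, adjusted p = 0.0122) and BCL2A1, a survival protein (1.65, adjusted p = 0.00564). VIM lost its call without any 1 of DUOD, JEJ or IPP (0.134 to 0.188), and TNFAIP3 without JEJ (0.0794). In the ileal libraries alone CD200R1, ISG15 and BCL2A1 lost their calls (0.105, 0.11 and 0.114). CD200R1 and ISG15 also lost them at a mitochondrial limit of 10% (0.116 and 0.245), ISG15 and BCL2A1 at a limit of 10 UMIs (0.129 and 0.109), and BCL2A1 with DESeq2 (0.0684). No glycolysis gene of 13 and no gene of 6 in the list of MHC class II and antigen display was called. With 4.94% of all genes called, lists this short are not set apart from that share. The remaining named rises were RGS10 (2.26), PCED1B (2.23) and the adaptor SH3KBP1 (2.17).

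Along the gut, the members of JEJ had more GZMA than those of DUOD, and less GZMM and CTSW. Ratios of CPM between regions carry an exact 95% Poisson interval and no test. A gene with at least 50 CPM in the higher region was counted past 2-fold. Of 2944 such genes, 8.93% were past 2-fold higher and 4.14% past 2-fold lower in JEJ, 13.1% either way. GZMB was 2.09-fold higher in JEJ (interval 1.93 to 2.25) and GNLY 5.45-fold (3.68 to 8.37, on 28 UMIs in DUOD). Both genes chose the cells, so these ratios are a description. GZMA, which did not, was 4.13-fold higher (3.49 to 4.91), and its second copy 3.27-fold (2.46 to 4.42). They were the 2 of 16 granule genes past 2-fold, and the list median was a log2 ratio of -0.04 against 0.10 over all genes. GZMM was 1.81-fold lower in JEJ (1.03 to 3.17) and CTSW 1.84-fold lower (1.51 to 2.23), both short of 2-fold. In gamma delta cells the same ratios of GZMA were 3.65 and 3.35, and in barcodes of 10 to 100 UMIs 2.97 and 4.56, so free RNA differed between the regions in the same direction, and its part in the result was not tested. GZMK (1.44, interval 0.916 to 2.33), PRF1 (1.40, 0.887 to 2.26), NKG7 (1.10, 0.815 to 1.48) and CD8B (1.11, 0.857 to 1.45) had intervals that include 1. CD8A was 1.36-fold higher (1.09 to 1.71).

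CXCR4 stood out in the opposite direction. It read 249 CPM in DUOD but 44.6 in JEJ, 54.0 in NoPP and 80.2 in IPP, 5.57-fold lower in JEJ than in DUOD (interval 2.94 to 11.3). In weakly cytotoxic cells the ratio was 1.13, in gamma delta cells 0.956, and in barcodes of 10 to 100 UMIs 1.11, none of them lowered in this way. TCF7 (2.48-fold lower, 1.38 to 4.55) and LTB (7.86-fold, 2.19 to 42.6, on 3 UMIs) were lower too, 3 of 5 measured recirculation genes. The class II genes SLA-DQB1 (5.36-fold) and HLA-DRA (3.44-fold), the adaptor gene HCST (3.05-fold) and the retinal dehydrogenase gene ALDH1A1 (3.37-fold) were lower in JEJ. So were VIM (2.44-fold), JUN (2.22-fold) and S100A6 (2.95-fold), and 5 of 13 cytoskeleton genes in all. VIM had ratios of 0.245 in weakly cytotoxic cells, 0.482 in gamma delta cells and 0.883 in barcodes of 10 to 100 UMIs, and JUN 1.26, 0.512 and 1.35. S100A6 had 0.0131 in gamma delta cells and 0.331 in those barcodes. SLA-DQB1 and HLA-DRA had 2.45 and 1.84, the opposite direction, in weakly cytotoxic cells. In gamma delta cells they had 0.375 and 0.749, and in those barcodes 0.521 and 0.483. The part of free RNA in these 2 genes was not tested. ALDH1A1 read 1125 CPM in the gamma delta cells of DUOD, far above the members. Higher in JEJ were CD247 (2.60-fold, 1.83 to 3.76) and CD69, an early activation and retention molecule (2.90-fold, 1.33 to 7.17). CD247 was also higher in JEJ in weakly cytotoxic cells (3.14), gamma delta cells (4.32) and barcodes of 10 to 100 UMIs (1.61). HPF1 (7.13-fold), the heat shock gene HSP70.2 (5.64-fold) and ANKRD44 (4.99-fold) were also higher, on 3 to 5 UMIs in DUOD. At a mitochondrial limit of 10%, which leaves 7 members in DUOD, HPF1 and HSP70.2 were lower in JEJ instead. The enterocyte genes FABP2 (23.2-fold, 1 UMI in DUOD) and APOC3 (3.66-fold) were higher, with ratios of 7.07 and 3.89 in barcodes of 10 to 100 UMIs.

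The ileum without patches was also set against DUOD, and this comparison shares the DUOD library with that of JEJ. Of 2893 genes, 6.98% were past 2-fold higher and 3.25% past 2-fold lower in NoPP (10.2% either way). The first GZMA copy was 2.36-fold higher (2.00 to 2.80) and the second 2.70-fold (2.06 to 3.61), and in barcodes of 10 to 100 UMIs 10.9-fold and 18.9-fold. GNLY was 3.21-fold higher (2.19 to 4.91, a gene of the gate), KLRK1 2.17-fold (1.22 to 4.21), CD69 2.52-fold (1.22 to 6.04) and PRDM1 4.29-fold (1.39 to 21.5, on 3 UMIs in DUOD). CXCR4 was 4.61-fold lower (2.90 to 7.36), and GZMM was 2.68-fold lower (1.61 to 4.38). GZMM also had its lowest level in NoPP, at 62.7 CPM. FOS was 5.14-fold higher, with 47.1% of its NoPP UMIs in 1 cell. Both FOS and CD69 were lower in NoPP than in the 7 DUOD members left at a mitochondrial limit of 10%.

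NoPP and JEJ were compared next. Of 2911 genes, 2.44% were past 2-fold higher and 2.54% lower in NoPP (4.98% either way). None of 18 T cell receptor, 18 transcription factor or 11 residency genes was past 2-fold, which these short lists do not set apart from the share over all genes. Past 2-fold were 1 of 16 granule genes (SRGN) and 2 of 7 chemokine and cytokine genes (CCL4 up and CCL20 down). So were 1 of 8 interferon response genes and 1 of 5 genes of MHC class II and antigen display (SLA-DQB1). SRGN read 309 CPM in JEJ and 800.5 in NoPP, 2.59-fold higher (2.07 to 3.27), with ratios of 1.65 in weakly cytotoxic cells, 1.30 in gamma delta cells and 3.56 in barcodes of 10 to 100 UMIs. JUN, an immediate early transcription factor, was 2.97-fold higher (2.14 to 4.23), and 4 of 15 immediate early and stress genes were past 2-fold in that direction. GZMB was 1.45-fold lower in NoPP (1.39 to 1.52) and the first GZMA copy 1.75-fold lower (1.61 to 1.89), both short of 2-fold.

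The other named differences from JEJ were genes of the epithelium. APOA1 read 746 CPM in DUOD and 1401 in JEJ, against 92.8 in IPP and 21.9 in NoPP. It was 64.1-fold lower in NoPP than in JEJ. FABP1 (88.1-fold), APOC3 (131-fold), S100G (36.9-fold), GSTA2 (22.9-fold) and APOA4 (16.5-fold) were also lower, and RBP2 at least 30.6-fold. In barcodes of 10 to 100 UMIs the same genes had ratios of 0.0520 to 0.181. FABP6, the ileal bile acid binding protein, was 49.2-fold higher in NoPP on 1 JEJ UMI (interval 8.66 to 1961), spread over 86 cells, and the hormone gene NTS 23.6-fold (6.37 to 197) over 79 cells. Their ratios in those barcodes were 90.6 and 35.0. The goblet cell genes TFF3 (15.3-fold), CLCA1 (26.5-fold), SPINK4 (9.40-fold) and AGR2 (36.5-fold) were higher, but 83.7% to 88.9% of their NoPP UMIs came from 1 cell. Against DUOD, where they had no UMI, CLCA1, FABP6, NTS and AGR2 were at least 15.7-, 9.75-, 9.33- and 7.23-fold higher. TFF3 and SPINK4 were 72.7- and 14.5-fold higher than in DUOD. Lower than in DUOD were APOA1 (34.1-fold), FABP1 (43.6-fold), ALDH1A1 (28.6-fold), S100G (17.7-fold), GSTA2 (19.1-fold), APOC3 (35.7-fold) and APOA4 (10.2-fold). For each gene of this paragraph the barcodes of 10 to 100 UMIs differed in the same direction, and the part of this free RNA in the differences was not tested.

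The last comparison sets ileum with patches against ileum without. Of 2853 genes, 1.65% were past 2-fold higher and 2.24% lower in IPP (3.89% either way), and neither GZMB (0.947, interval 0.903 to 0.993) nor CD8A (0.887, 0.764 to 1.03) was past 2-fold. MT1A, a metal-binding metallothionein, read 642, 759, 765 and 246 CPM in DUOD, JEJ, IPP and NoPP, so NoPP was the lowest and the other 3 libraries lay above it. It was 3.10-fold higher in IPP than in NoPP (2.56 to 3.77), and MT1X was 2.61-fold higher (1.89 to 3.61). The MT1A ratio was 2.95 in weakly cytotoxic cells, 33.2 in gamma delta cells and 2.53 in barcodes of 10 to 100 UMIs. GNLY, a gene of the gate, was 2.27-fold higher (1.97 to 2.61), with 38.0% of the IPP UMIs in 1 cell. The GNLY ratio was 4.79 in weakly cytotoxic cells and 1.14 in barcodes of 10 to 100 UMIs, but 0.398, the opposite direction, in gamma delta cells. GZMM was 2.36-fold higher (1.57 to 3.58), FCER1G 3.10-fold (1.86 to 5.27, in 11 cells) and the interferon response gene IFI6 2.25-fold (1.61 to 3.16). The GZMM ratio was 2.55 in weakly cytotoxic cells, 1.06 in gamma delta cells and 0.534 in barcodes of 10 to 100 UMIs. CLTA, a clathrin light chain, and NOL8 were just past 2-fold (2.06 and 2.05).

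Of 15 immediate early and stress genes, 6 were past 2-fold lower in IPP, none was past 2-fold higher and 9 were within 2-fold. JUN read 312, 141, 148 and 418 CPM in DUOD, JEJ, IPP and NoPP, 2.83-fold lower in IPP than in NoPP (2.13 to 3.81). The JUN ratio was 0.416 in weakly cytotoxic cells and 0.463 in barcodes of 10 to 100 UMIs, but 2.46, the opposite direction, in gamma delta cells. DNAJB1, a heat shock cochaperone, was 2.89-fold lower (1.94 to 4.43), at ratios of 0.261 in weakly cytotoxic cells, 0.876 in gamma delta cells and 1.03 in barcodes of 10 to 100 UMIs. In JUN 26.8%, in FOS 47.1%, in ATF3 51.9% and in EGR1 52.8% of the NoPP UMIs came from 1 cell, while in DNAJB1 no cell held more than 6.04%. The chemokine gene CCL4 (ENSSSCG00000038096) read 0, 10.3, 7.52 and 59.8 CPM, 7.95-fold lower in IPP (2.53 to 40.1, on 3 UMIs). NTS was 4.03-fold lower (2.38 to 7.30), and CLCA1, TFF3, SPINK4, AGR2 and KRT8 were 7.17- to 109-fold lower, with at least 83.7% of their NoPP UMIs in 1 cell.

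**Figure D4:**
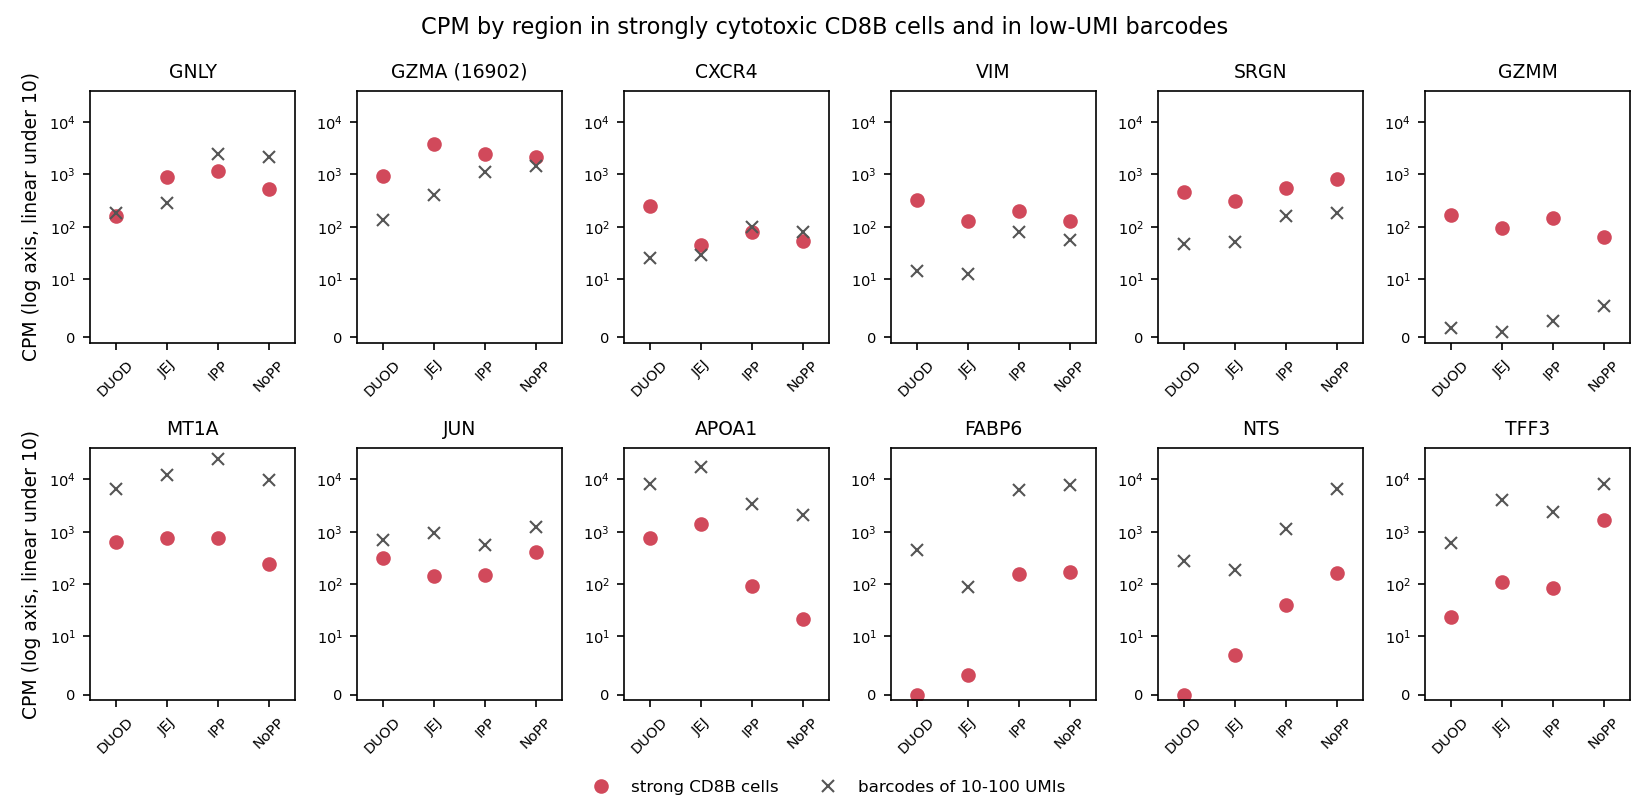
CPM of 12 genes in the strongly cytotoxic CD8B cells of each region (red points) and in barcodes of 10 to 100 UMIs (crosses), on a log axis that is linear under 10. GZMA is the copy ENSSSCG00000016902. CXCR4 is highest in DUOD cells and MT1A lowest in NoPP cells, and APOA1 is highest in JEJ. FABP6 and NTS are higher in both ileal libraries than in DUOD and JEJ, in cells and crosses alike.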

How the data were processed

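The deposited matrices hold raw UMI counts per gene and barcode, made by the authors with Cell Ranger 4 per the file headers (4.0.6 per the submitters' processing notes), for 25880 genes and 6794880 listed barcodes per region. Per the labels' protocols the libraries are 10x droplet libraries. No coordinate or sequence was used, and the genome build is not given in the sources used here. A kept barcode had 1000 UMIs and 500 genes or more and no more than 25% of its UMIs from 13 mitochondrial genes, 121 shared NoPP barcodes were left out, and the gate was applied to the rest. No doublet caller was run, so doublets of a T cell with another cell can be among the members. The 16 titles, 4 per region, cannot be told apart in the matrices, so a region is 1 sample.

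UMIs were summed per library and class. The 8 sums of each comparison were tested with edgeR 4.0.16 (quasi-likelihood, TMM, filterByExpr, library as covariate, 14 gate genes left out) and R 4.3.3, with Benjamini-Hochberg adjustment at 0.05. Regions were compared by CPM ratios with exact 95% Poisson intervals, a floor of 3 UMIs for counts of 0, and a fold of 2. Intervals and floors cover counting error only. On simulated counts with known changes, the test of strongly against weakly cytotoxic cells recovered 59% of 100 genes changed 2-fold and 97% of 100 changed 4-fold (4364 genes, 2 false calls). The test against gamma delta cells recovered 37% and 94% (3985 genes, 4 false calls). Alternatives were DESeq2 1.42.0, other filters, limits and scalings, thinning, and each library left out. Symbols came from the files for 17733 genes and from the gene name table for 977, and 7170 had none. Of 371 genes in 20 lists, 326 were in the files.

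Named genes were the 12 largest changes in each direction per test that passed, went the same way in 4 of 4 libraries and had at least 50 UMIs. For each regional ratio they were the 8 farthest from 1 at the near end of the interval, with at least 100 CPM and 10 cells. List members were named as examples, and a few genes that these rules would name are not reported here. Members, lists and rules were chosen with earlier results of these data known.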

Additional observations from a re-analysis of the deposited data

Results flagged for a closer look

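In 8 of 103 genes that passed a test, the difference within 1 library stood apart from those of the other 3, where chance would do so in about 1 gene of 20. The values are log2 differences with 0.5 UMI added to each sum. Between strongly and weakly cytotoxic CD8B cells, CYS1 was -3.33 in JEJ and -1.36 to -1.01 elsewhere. KLRB1 was -3.98 in NoPP and -2.42 to -2.13 elsewhere, but DUOD and JEJ had no KLRB1 UMI in either class, so that their values come from the added 0.5 UMI alone. GPR183 was 4.38 in JEJ, where the weakly cytotoxic cells had no UMI, and 0.13 to 0.80 elsewhere. XCL1 was 0.34 in DUOD and -1.55 to -1.24 elsewhere, the 1 case of an opposite sign.

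Between strongly cytotoxic CD8B and gamma delta cells, PCED1B was 4.75 in JEJ, where the gamma delta cells had no UMI, against 1.61 to 2.03 elsewhere. IL2RB was -2.11 in JEJ and -1.05 to -0.88 elsewhere. S100A11, a calcium-binding protein, was -6.18 in JEJ, where the members had no UMI, against -2.47 to -1.91. VIM was 0.052 in NoPP and 2.14 to 2.49 elsewhere, at 131 CPM in members and 124 in gamma delta cells of NoPP.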

How the results depend on the processing

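No paired analysis was possible because the 4 titles of a region cannot be told apart in its matrix, so no replicate block could be fitted. Leaving out 1 library each in turn gave 9 to 72 genes higher and 14 to 149 lower in strongly than in weakly cytotoxic cells (53 and 83 with all 4), and 26 to 113 higher and 67 to 225 lower than in gamma delta cells (59 and 138). The 2 ileal libraries alone, an alternative chosen after seeing the data, gave 155 lower in the first comparison, and 15 higher and 36 lower in the second. Counts of higher and lower genes in the first comparison were 12 and 23 with at least 2 CD8B UMIs, 19 and 25 when at most 10% mitochondrial UMIs were allowed, 9 and 26 with DESeq2, and 20 and 41 without the library term. In the second they were 32 and 65 at 10% mitochondrial UMIs, 28 and 67 at a limit of 10 UMIs, 113 and 252 at a limit of 0.1% of UMIs, 146 and 233 without the deepest 5% of cells, 37 and 89 with DESeq2, 213 and 298 without a filter on low counts, and 110 higher without the highest cell of each gene, also chosen after seeing the data.

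At a limit of 3 UMIs the strongly cytotoxic share was 92.9% in DUOD, 72.4% in IPP and 77.4% in NoPP. At 10 it was 60% in DUOD, 45.2% in IPP, 57.6% in NoPP and 79.8% in JEJ. At 10% mitochondrial UMIs it was 76.6% in JEJ, 50.9% in IPP and 53.4% in NoPP, and thinned to 1000 UMIs 46.2% in DUOD, 48.1% in IPP and 63.8% in NoPP. The percent of genes past 2-fold was 36.6 for JEJ against DUOD, 18.98 for NoPP against JEJ, 37.0 for NoPP against DUOD and 20.3 for IPP against NoPP at the 10% limit, which leaves 7, 36, 27 and 39 members in DUOD, JEJ, IPP and NoPP. With at least 2 CD8B UMIs it was 32.5, 16.1, 24.5 and 8.55, and for NoPP against JEJ scaled without mitochondrial, ribosomal and gate genes 7.88.

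Signs reversed as follows, in log2. At the 10% limit, strongly against weakly cytotoxic cells gave -0.45 for GPR183 and -0.59 for TFF3. JEJ against DUOD gave -0.90 for HPF1, -0.75 for HSP70.2 and -0.37 for TFF3. NoPP against JEJ gave -0.14 for TFF3, -0.84 for AGR2, -0.25 for SPINK4, -0.25 for FOS and -2.84 for KRT8. NoPP against DUOD gave -0.52 for TFF3, -2.74 for CLCA1, -0.87 for FABP6, -0.16 for SPINK4, -3.33 for AGR2, -1.33 for FOS, -4.33 for KRT8 and -0.74 for CD69. IPP against NoPP gave 0.48 for CLCA1, 1.06 for AGR2, 1.48 for KRT8 and 0.29 for FOS. With at least 2 CD8B UMIs, JEJ against DUOD gave -0.29 for HSP70.2 and -0.27 for DNAJB1, NoPP against JEJ -0.54 for AGR2 and -1.95 for KRT8, NoPP against DUOD -0.70 for CLCA1, -1.57 for AGR2 and -2.57 for KRT8, and IPP against NoPP 1.18 for KRT8. KRT8 in NoPP also reversed against JEJ and DUOD without the deepest 5% of cells (-1.12 and -0.96), by the average CPM per cell (-0.13 and -0.040) and without its highest cell (-0.97 and -0.72). The 10% limit and the limit of 2 CD8B UMIs leave fewer cells, and beyond that the cause was not tested. Over the 103 genes of the 2 tests, 1596 values kept direction and call, 259 lost the call and 2 reversed. Of the regional values, 1025 stayed within their interval, 124 moved and 34 reversed. With 1 pooled library per region, differences between regions cannot be told apart from differences between pigs, tissue pieces or runs. Depth limits genes with few UMIs: in DUOD 1 UMI is 5.78 CPM of the members.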

Other observations

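Within the strongly cytotoxic CD8B cells, those with a GNLY UMI were set beside those without one, as a description with no test. There were 4, 25, 39 and 54 cells with GNLY in DUOD, JEJ, IPP and NoPP, at median depths of 2237, 2045, 2174 and 2386 UMIs, and 55, 76, 91 and 172 without, at 2764, 2704, 2633 and 2436 UMIs. GZMA ENSSSCG00000016903 read 529, 2409, 1805 and 1384 CPM with GNLY and 316, 717, 855 and 742 without, higher in 4 of 4 libraries. Its DUOD value with GNLY rests on 6 UMIs. The more abundant copy ENSSSCG00000016902 read 882, 6552, 3886 and 2787 CPM against 916, 3019, 1851 and 1970, higher in 3 of 4 and lower in DUOD. KLRK1 read 88.2, 209, 346 and 208 CPM against 74.3, 100.5, 156 and 149.9, and ENTPD1 88.2, 225, 173 and 120 against 55.7, 87.4, 98.9 and 79.7, both also higher in 4 of 4. In DUOD each of these 2 rests on 1 UMI in the cells with GNLY. XCL1 (265, 64.2, 156 and 132 CPM against 334, 293, 180 and 264) and CTSW (1146, 337, 950.0 and 610 against 1269, 782, 1025 and 778) were lower in 4 of 4. GZMB, PRF1 and NKG7 were higher with GNLY in JEJ, IPP and NoPP and lower in DUOD. FCER1G read 268 CPM with GNLY and 49.5 without in IPP, 94.4 and 18.98 in NoPP, and at most 2 UMIs in DUOD or JEJ. GZMK and CCL5 were higher with GNLY in 2 libraries and lower in 2. The genes set side by side were a chosen few and no share over all genes was taken. Some genes would go the same way in 4 of 4 libraries by chance. Free RNA holds GNLY as well, and its part in this split was not tested.

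Several genes of metabolism, adhesion and signalling, picked after their values were seen, were level along the gut in these cells. The glycolysis genes GAPDH (849 to 910 CPM) and ENO1 (839 to 900) and the integrin genes ITGA4 (290.1 to 318) and ITGB7 (208 to 266) kept within narrow ranges over the 4 libraries. So did LCK, the kinase of the CD8 coreceptor (538 to 592 CPM), CRTAM, a receptor of activated cytotoxic cells (532 to 598), and JAML, which binds a junction protein of epithelial cells (179 to 206). Inhibitory receptors were sparse: a UMI of PDCD1 was found in 4.46% of members, of LAG3 in 9.11%, of HAVCR2 in 9.11% and of CTLA4 in 0.969%. IL22 and IL17A had no UMI in any member, and TNF had 2.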
